A study of Mus musculus with 2 samples.

Results

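The forkhead genes encode transcription factors that share a winged-helix DNA-binding domain and are named Fox, with a letter for the subfamily and a digit for the gene. Members were the protein-coding genes of the GENCODE M21 annotation with such a symbol, leaving out Foxo1, Foxo3 and Foxo4. There were 41 of them among 21938 protein-coding genes. Open chromatin was mapped by DNase-seq, which reads the ends of fragments that the nuclease DNase I releases from accessible DNA in nuclei. The tissue was gastrocnemius, the large calf muscle, of male B6CASTF1/J mice (a cross of C57BL/6 and CAST/EiJ) aged 10 days. There was 1 group with 2 libraries, called biological replicates 1 and 2 in the labels, with no treatment and no other condition. Both labels point to the same donor record and mention 3 males, and they do not say whether tissue was pooled. Differences between the replicates therefore measure the spread between these samples, which may be technical. Bulk tissue holds several cell types, so that few cells with open chromatin and weak opening in many cells cannot be told apart.

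Forkhead factors bind variants of a short core, TGTTTAC, and some of them, such as the Foxa factors, can bind it in compacted chromatin and open it. Subfamilies divide by where they act. Foxk, Foxj2, Foxj3, Foxn2, Foxn3, Foxm1, Foxp1 and Foxp4 are found in many tissues, while Foxa, Foxc, Foxd, Foxe, Foxf, Foxi and Foxl members direct the development of particular organs. In skeletal muscle Foxk1 is known from muscle progenitor cells and Foxj3 from the control of Mef2c and muscle regeneration.

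Values are given for replicate 1 and then replicate 2. A promoter was the 500 bp on either side of a start of a coding transcript, and it was called open where a deposited peak overlapped it. Its value was that of the highest such peak, in the authors' depth-scaled signal. Replicate 1 had 123255 peaks and 310961 footprints, short runs of bases shielded from DNase I, and replicate 2 had 150088 and 373154. The median peak value was 0.729 and 0.716. All 10 skeletal muscle marker promoters were open in both replicates, from 1.62 to 8.48 in replicate 1 and from 2.58 to 11.5 in replicate 2. Of the marker lists for other cells, 5 of 5 endothelial, 5 of 5 pericyte and smooth muscle, 4 of 5 fibroblast and 3 of 5 Schwann cell promoters were open in both. None of the 5 lymphocyte promoters and none of the 5 hepatocyte promoters was open in either replicate.

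Open forkhead promoters ranged from high peaks at Foxn2, Foxj3, Foxk1, Foxk2, Foxo6, Foxj1 and Foxd2 to low signal at most genes of organ development. The sequences of 4 promoter peaks are shown because they span that range, from the highest forkhead promoter (Foxn2) through the muscle progenitor gene Foxk1 and the vessel and mesenchyme gene Foxc1 to the neural crest gene Foxd3. Each is the part of the replicate 1 peak that lies upstream of the start, on the plus strand of mm10, and capitals mark bases inside footprints called in both replicates. They are chr17:88440541-88440710, chr5:142401341-142401496, chr13:31806461-31806632 and chr4:99655981-99656180.
Foxn2 promoter peak: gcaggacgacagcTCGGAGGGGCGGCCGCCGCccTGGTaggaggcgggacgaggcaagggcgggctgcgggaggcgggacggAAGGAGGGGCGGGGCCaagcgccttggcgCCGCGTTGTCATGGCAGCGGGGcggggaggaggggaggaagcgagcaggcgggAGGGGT
Foxk1 promoter peak: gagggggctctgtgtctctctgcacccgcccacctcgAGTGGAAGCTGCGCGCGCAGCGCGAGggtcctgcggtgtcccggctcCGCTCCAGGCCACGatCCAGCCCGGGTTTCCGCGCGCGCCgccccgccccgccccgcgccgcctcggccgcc
Foxc1 promoter peak: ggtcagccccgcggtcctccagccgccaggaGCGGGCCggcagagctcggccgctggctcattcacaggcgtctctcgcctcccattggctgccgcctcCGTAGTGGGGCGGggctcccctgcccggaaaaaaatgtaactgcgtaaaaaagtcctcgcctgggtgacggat
Foxd3 promoter peak: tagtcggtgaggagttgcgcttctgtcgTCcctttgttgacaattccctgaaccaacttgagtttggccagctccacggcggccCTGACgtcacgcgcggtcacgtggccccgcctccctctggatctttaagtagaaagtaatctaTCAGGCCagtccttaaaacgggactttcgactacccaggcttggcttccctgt
In these stretches 67 of 170 bases at Foxn2, 64 of 156 at Foxk1, 20 of 172 at Foxc1 and 14 of 200 at Foxd3 lay inside such shared footprints. The Foxn2 stretch held 5 matches to GGGCGG, the core bound by SP and KLF factors, on either strand, and 2 of them lay inside a shared footprint. The Foxc1 stretch also held AGCCAAT on the minus strand, the core bound by NF-Y, outside any shared footprint.

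Of the 41 promoters, 29 (70.7%) were open in both replicates, against 65.8% of all protein-coding genes. Counted by replicate, 32 were open in replicate 1 (67.7% of all genes) and 29 in replicate 2 (67.8%). These shares were near the background. With a promoter window of 1000 bp on either side 34 (82.9%) were open in both, against 67.3% of all genes. With the stricter of the deposited peak lists 21 forkhead promoters (51.2%) were open in both, against 61.7% of all genes, and the call was lost at 8 of the 29 (Foxa1, Foxa2, Foxb1, Foxe1, Foxf2, Foxi2, Foxi3 and Foxl2). Open in replicate 1 only were 3 of 41, Foxf1 and Foxb2 among them, against 1.85% of all genes. No forkhead promoter was open in replicate 2 only, against 1.98%. The promoters of Foxn4, Foxl1, Foxr1, Foxi1, Foxn1, Foxq1, Foxh1, Foxd4 and Foxr2 had no peak in either replicate, 9 of 41 against 30.3%.

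The content of CpG dinucleotides gave a sharper contrast. A promoter was counted as CpG-rich where its observed-to-expected CpG ratio in the 500 bp on either side of the 5′-most start was at least 0.6. Of the 30 CpG-rich forkhead promoters 24 (80%) were open in both replicates, against 97.1% of all CpG-rich promoters. Among the 6 others, Foxf1 and Foxb2 were open in replicate 1 only, and Foxl1, Foxn4 and Foxr1 in neither. Of the 11 CpG-poor promoters 5 were open in both, against 38.5% of all such genes. The CpG ratio refers to the 5′-most start, while a peak at any start counted as open. Foxj3, among these 5, had no peak at its 5′-most start. Homeobox genes outside the Hox clusters, another family of developmental regulators, had 80.2% of their CpG-rich promoters open in both. Nuclear receptor genes had 95.2%.

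The open forkhead promoters had lower values than open promoters in general. Their median value was 1.87 in replicate 1 and 2.38 in replicate 2, against 4.65 and 6.47 over all open promoters. As the mean of both replicates the medians were 2.11 and, over all open promoters, 5.61. With the stricter list, in which 21 members were open, they were 4.39 and 6.12. Only 7 of the 29 had a geometric mean above the median of all open promoters. The homeobox genes had medians of 1.42 and 1.75, and the nuclear receptor genes 3.48 and 4.40. The plot of promoter values by gene gives their order.

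**Figure D1:**
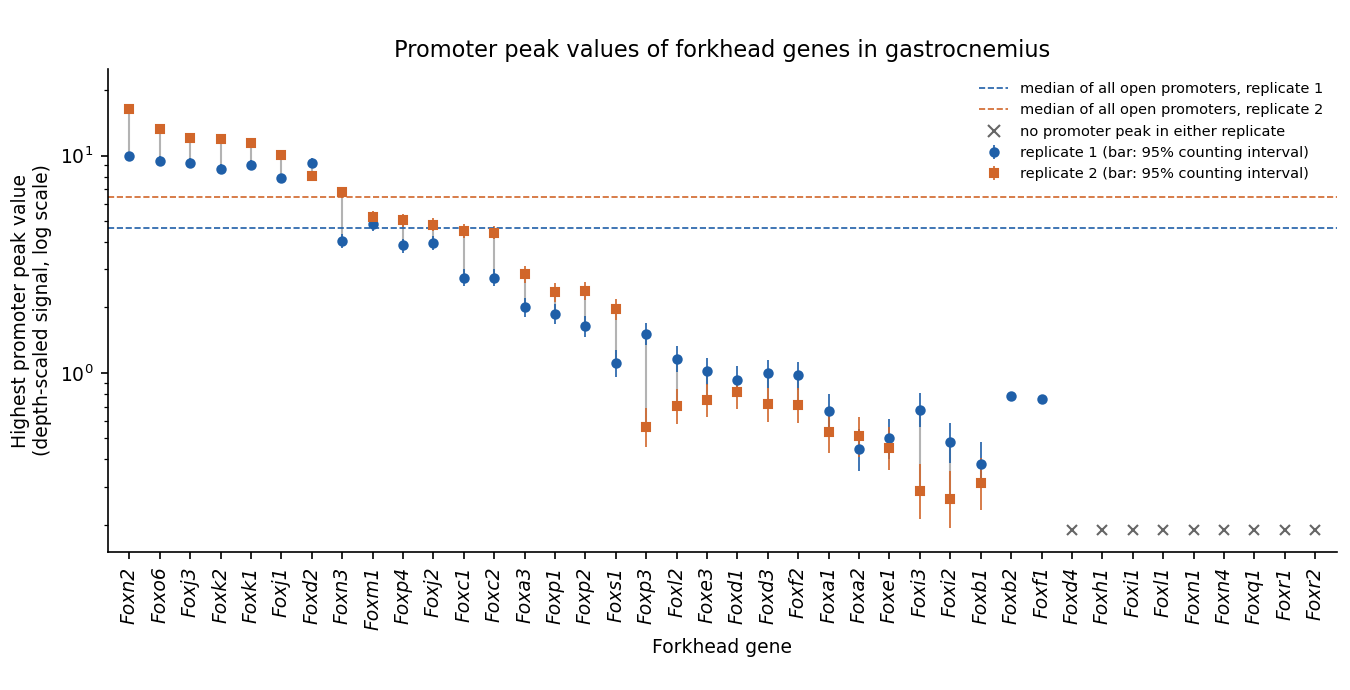
Highest promoter peak value (depth-scaled signal, log scale) of 40 forkhead genes in replicate 1 (circles) and replicate 2 (squares); bars are 95% counting intervals for promoters open in both replicates, dashed lines the medians of all open promoters, and crosses promoters with no peak in either. The 7 genes on the left, from Foxn2 to Foxd2, lie above both medians, and from Foxp3 rightward replicate 1 is the higher one at 11 of 12 genes.

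The 9 widely expressed members were all open in both replicates, and all 9 were higher in replicate 2. Their medians were 4.83 and 6.79. Of these 9, 8 were CpG-rich, and 97.1% of all CpG-rich promoters were open in both. All 9 had a geometric mean of 1.2 or more, and 11% of all such promoters were higher in replicate 1. Both counts were therefore near the background. Foxn2, which encodes a forkhead factor first described in T-cell leukaemia virus research, had the highest forkhead promoter peak, with values of 9.90 and 16.3 at a site 80 bp upstream of the start. Its paralogue Foxn3, a repressor linked to checkpoint control and liver metabolism, had 4.05 and 6.79. These Foxn3 values come from an inner start. The 5′-most start of Foxn3 had 3.71 and 4.55, and 2 of its 6 starts had no peak in either replicate. Both genes had higher values in replicate 2, and Foxn2 was the higher of the pair in each replicate.

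Foxk1 and Foxk2 encode the pair of forkhead factors that recruit the Sin3 corepressor and restrain autophagy genes. Foxk1 had promoter values of 9.05 and 11.4, and Foxk2 had 8.70 and 11.9. The order of the pair changed between the replicates, and their values differed by less than either gene differed between replicates. Foxj3, the regulator of Mef2c, had 9.24 and 11.996, while its paralogue Foxj2 had 3.97 and 4.81. The Foxj3 peak lay upstream of an inner group of starts, and its midpoint was 12 bp and 22 bp from the start of Frg2f1, so that it could not be assigned to either gene. The 5′-most annotated start of Foxj3 had no peak in either replicate.

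Foxm1, a cell-cycle regulator of dividing cells, had 4.83 and 5.23. This peak also lay 19 bp and 31 bp from the start of Rhno1, a neighbouring gene. Foxp4 had 3.86 and 5.04 and Foxp1, its paralogue, 1.87 and 2.35. Foxp1 has 14 annotated starts, of which 9 were open in both replicates and 5 in neither. Its highest peak lay near the outer starts in replicate 1 and near an inner group in replicate 2, so these values come from different sites. Foxp2, known from speech and motor circuits, had 1.64 and 2.38 and had 4 of its 8 starts open in both replicates.

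Foxo6, the FoxO gene known mainly from brain, had promoter values of 9.48 and 13.3, next to Foxn2 in height. Its peak was centred 572 bp and 602 bp upstream of the start, at the edge of the window. With a window of 250 bp on either side the mean of both replicates was 0.918 in place of 11.4. The left-out FoxO genes, which control muscle atrophy genes, had 7.08 and 7.10 at Foxo1, 4.36 and 8.12 at Foxo3 and 3.19 and 4.97 at Foxo4.

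Values lay far apart among the genes of cilia, ovary, germ line and early embryo. Foxj1, the master regulator of motile cilia, had a high and narrow promoter peak of 160 bp in both replicates, with values of 7.85 and 10.1. The peak lay 42 bp upstream of the start. Of 4 ciliated-cell markers that matched the annotation, 3 were open in both replicates (Rsph1 at 16.9 and 18.0, Ccdc39 at 1.64 and 1.94, Tekt1 at 1.71 and 1.22) and Dnah5 in neither. Whether ciliated cells contribute to the Foxj1 peak was not tested. Its sequence is shown because Foxj1 is a cilia gene with a promoter peak as high as those of several widely expressed members. It is the upstream part, chr11:116335400-116335520, plus strand, with capitals as above.
Foxj1 promoter peak: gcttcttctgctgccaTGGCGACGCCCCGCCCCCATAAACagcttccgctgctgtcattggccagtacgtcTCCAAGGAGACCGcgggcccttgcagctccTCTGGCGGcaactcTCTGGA
Foxl2, the ovarian factor, had 1.16 and 0.704, and 1 of 5 ovary and germ-line markers was open in both replicates. Foxh1, the partner of Smads in Nodal signalling, and Foxr1 and Foxr2 had no promoter peak.

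Among the mesoderm, mesenchyme and vessel wall genes, 6 of 9 promoters were open in both replicates. Foxc1 and Foxc2, paralogues that act in vessel, lymphatic and somite development, had nearly equal promoter values. Foxc1 had 2.74 and 4.49, and Foxc2 had 2.74 and 4.42. The replicate 1 peaks of both rested on 504 tags. Each was higher in replicate 2, by 0.71 and 0.69 on the log2 scale, while the genes differed from each other by less than their counting intervals. The endothelial markers Pecam1, Cdh5, Kdr, Tek and Tie1 had values from 0.489 to 1.48 in replicate 1 and from 0.446 to 2.12 in replicate 2, and pericyte and smooth muscle markers from 0.397 to 4.44 and from 0.769 to 4.77. The part of these cells in the Foxc1 and Foxc2 peaks was not tested.

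Foxd2, a factor of somite and kidney mesenchyme, had 9.24 and 8.05. It was the single member with a geometric mean of 1.2 or more that was higher in replicate 1. The peak lay 118 bp and 108 bp upstream of Foxd2 and 266 bp and 276 bp from the start of the non-coding gene Foxd2os. Foxs1, a gene of pericytes and neural crest, had 1.11 and 1.96. Foxd1, known from kidney stroma and pericyte precursors, had 0.930 and 0.816, and Foxf2, a pericyte and gut mesenchyme factor, had 0.973 and 0.710. Its paralogue Foxf1 had 0.756 in replicate 1 and no promoter peak in replicate 2. A Foxf1 site just beyond the promoter window, 635 bp and 625 bp upstream and about as far from the start of the long non-coding RNA Fendrr, was open in both, with 2.81 and 3.10.

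The endoderm genes Foxa1, Foxa2 and Foxa3, pioneer factors of liver and gut, were all open in both replicates, and with the stricter list Foxa3 alone was. Foxa1 had 0.669 and 0.534, and Foxa2 had 0.446 and 0.511, with its highest peaks at different starts. Foxa3 had 2.01 and 2.84. A far higher site at Foxa3, 773 bp and 783 bp upstream with 7.34 and 13.7, lay within 66 bp of the start of Sympk. No hepatocyte marker promoter was open, the list being Alb, Apoa1, Ttr, Serpina1a and Tat.

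The nervous system and neural crest genes had 2 of 5 promoters open in both replicates. Foxd3, which maintains neural crest progenitors, had 0.995 and 0.716, and Foxb1, a hypothalamic gene, had 0.381 and 0.311. Foxb2 had 0.783 in replicate 1 and no promoter peak in replicate 2. The replicate 1 peak was 1020 bp wide and centred 854 bp downstream of the start, in the coding exon. Replicate 2 had a peak of 0.528 within that same stretch, but outside the promoter window. Foxd4 had no promoter peak. At Foxd3, Foxb1 and Foxb2 replicate 1 was the higher one.

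Among the placode and epithelial genes 4 of 6 promoters were open in both replicates, with the lowest medians of the groups with several open members, 0.587 and 0.370. With the stricter list Foxe3 alone was open in both. Foxe3, the lens factor, had 1.02 and 0.751. Its peak was centred 582 bp and 612 bp downstream of the start, in the coding exon, at the edge of the window. No footprint lay in the Foxe3 promoter in either replicate, and with a window of 250 bp on either side it was not open. Foxe1, the thyroid factor, had 0.5003 and 0.452 at peaks that lay side by side. Foxi3, a factor of ear and tooth placodes, had 0.674 and 0.288, and Foxi2 had 0.479 and 0.264. Foxi1, of the inner ear and kidney, and Foxn1, of thymus epithelium and hair, had no promoter peak.

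Foxp3, the lineage factor of regulatory T cells on the X chromosome, had 1.51 and 0.563, the largest log2 difference of the open members, at -1.42. These were different peaks: that of replicate 1 lay 407 bp downstream of the start and 197 bp from the start of Ppp1r3f, and that of replicate 2 lay 129 bp from the start of Flicr, a non-coding RNA of the locus. Of the 7 annotated starts of Foxp3, the 5′-most was open in both replicates and the other 6 in neither. Another site, 747 bp downstream of the 5′-most start and 101 bp from a Flicr start, was open in both replicates at 3.79 and 8.07. The lymphocyte markers Il2ra, Ctla4, Cd3e and Cd4 had no promoter peak in either replicate.

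The direction of the difference between replicates followed the height of the promoter. Over all promoters open in both, 17.9% were higher in replicate 1, and the median log2 ratio of replicate 2 to replicate 1 was 0.44, with 5th and 95th percentiles of -0.41 and 1.08. Over all genes that median was -0.19 below a geometric mean of 0.5 and 0.61 at 8 or more. Among forkhead genes 12 of 29 were higher in replicate 1, and 5 of 21 with the stricter peak list, against 15.1% of all promoters open in that list. The split by height was chosen after the values were seen, at a geometric mean of 1.2, which fell between Foxs1 (1.47) and Foxp3 (0.923). Of the 17 members at or above it 1 was higher in replicate 1, against 11% of all such promoters. Of the 12 below it 11 were, against 58.6% of all such promoters. Foxa2 was the exception.

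All 10 CpG-rich members below 1.2 were higher in replicate 1, against 72.2% of all CpG-rich promoters of that height. The log2 ratios of 22 of the 29 members lay within the 5th to 95th percentile of all promoters. The others all had a geometric mean under 1.2, and that band takes no account of height. Against promoters of like height only Foxi3, Foxp3 and Foxd2 lay outside the band. Their log2 ratios were -1.23, -1.42 and -0.20, and the 5th percentiles at their heights were -0.87, -0.78 and 0.03. Counting intervals of the ratio lay above 1 for 15 members and below 1 for 8. The same shares over all promoters were not computed, so these counts cannot be set against a background. The median ratio of all open promoters was itself 1.36. The highest peaks of the replicates did not overlap at 6 of 29 members (Foxa2, Foxe1, Foxf2, Foxp1, Foxp2 and Foxp3), against 5.43% of all open promoters. Among members whose highest peaks did overlap, all 8 below 1.2, of which 7 were CpG-rich, were higher in replicate 1, against 73% of all CpG-rich promoters of that kind. Homeobox genes had 51 of 116 open promoters higher in replicate 1.

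**Figure D2:**
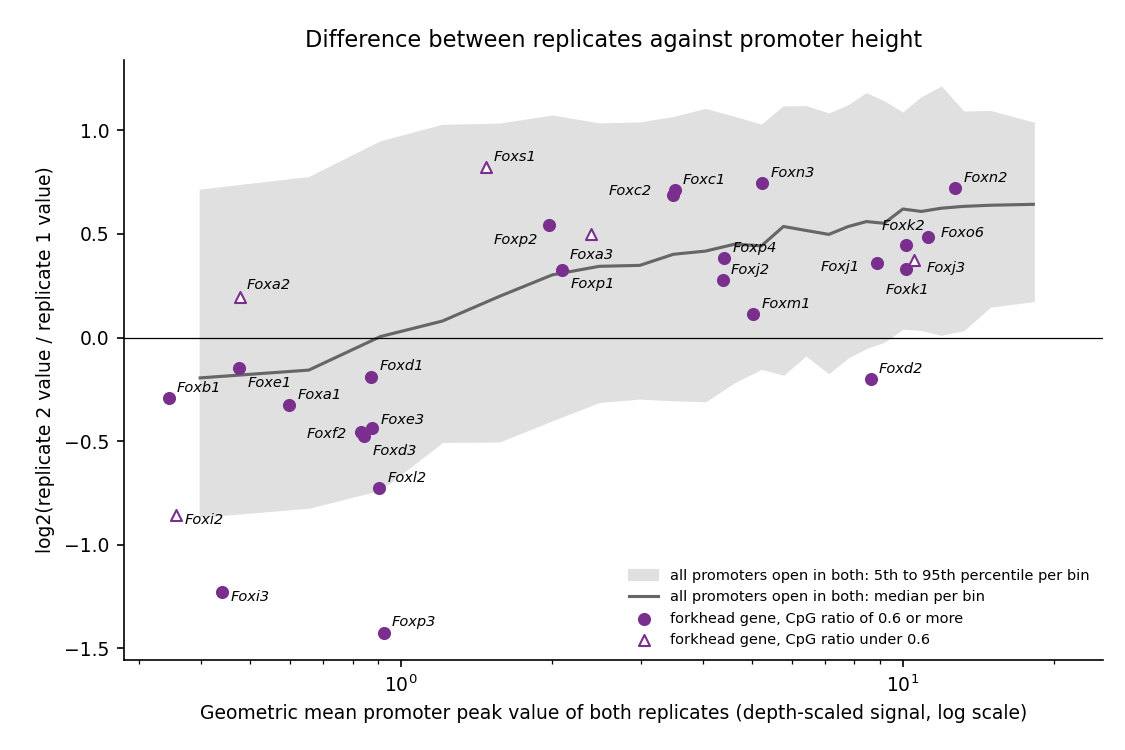
log2 ratio of replicate 2 to replicate 1 against the geometric mean promoter value (log scale), for the 29 forkhead promoters open in both replicates (points), with the median and the 5th to 95th percentile of all 14442 such promoters in 24 bins of equal gene number (line and band). From Foxs1 rightward the forkhead points lie above 0, apart from Foxd2, and to the left of Foxs1 they lie below 0, apart from Foxa2.

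In replicate 1 many of the low forkhead promoters sat in loci where open bases were spread out, and in replicate 2 fewer did. The files list single positions at a false discovery rate (FDR) under 0.05, and locus cover was the percentage of such bases in the gene with 10 kb added at either end. Its median over the 41 loci was 6.30% in replicate 1 and 3.84% in replicate 2, against 2.68% and 3.06% over all genes. Cover was higher in replicate 1 at 22 of 41 loci, against 27.2% of all genes. It was at least 2 times as high at 8 of 41, against 4.88%.

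Among these 8 were Foxa1, Foxa2, Foxb1, Foxb2, Foxf1, Foxl1 and Foxl2. Foxa1 had a cover of 16.8% and 3.24%, and Foxa2 had 12.1% and 2.19%. Foxb2 had 12.5% and 0.940%, and Foxl2 13.0% and 3.84%. Those named are genes of organ development without a promoter value of 1.2 or more. Of the 16 CpG-rich members without such a value, 12 had the higher cover in replicate 1, against 44.5% of all genes so defined, and 7 had at least 2 times the cover, against 10.4%.

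Gene length went with this. Of the 25 members shorter than 10 kb, 21 had more cover in replicate 1, against 30.4% of all genes of that length and 41% of the CpG-rich ones. Of the 16 longer members 1 did (Foxr2, at 2.79% and 2.52%), against 25.5%. The short members had medians of 9.91% and 3.86%, against 2.85% and 3.03% over all genes of that length. The long ones had 3.06% and 3.64%, against 2.65% and 3.07%. Among CpG-rich genes under 10 kb the medians were 10.46% and 3.92% for members and 7.43% and 7.53% for all genes. Against these matched genes, short CpG-rich members thus had more cover in replicate 1 and less in replicate 2. Among the homeobox genes cover was higher in replicate 1 at 60.1%.

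The highest mean cover was at Foxd3, with 27.1% and 16.7%. Foxd2 had 17.4% and 17.6%, and Foxc1 had 20.96% and 13.7%. Foxa3 had 12.1% and 19.5%, Foxo6 12.7% and 15.9%, Foxc2 17.4% and 10.7%, Foxd1 13.6% and 13.1% and Foxh1 15.9% and 8.62%. In each replicate the peaks of the locus included 4 at starts of neighbouring genes at Foxa3, and 5 at Foxh1. Foxd3 had 4 such peaks in replicate 1 and 1 in replicate 2. Foxo6 and Foxc2 had 1 in each replicate, and Foxd2 had 1 in replicate 1 only. Foxr1 had no listed base and no peak in its locus in either replicate, and the other 40 loci held a peak in both, against 82.3% of all genes.

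**Figure D3:**
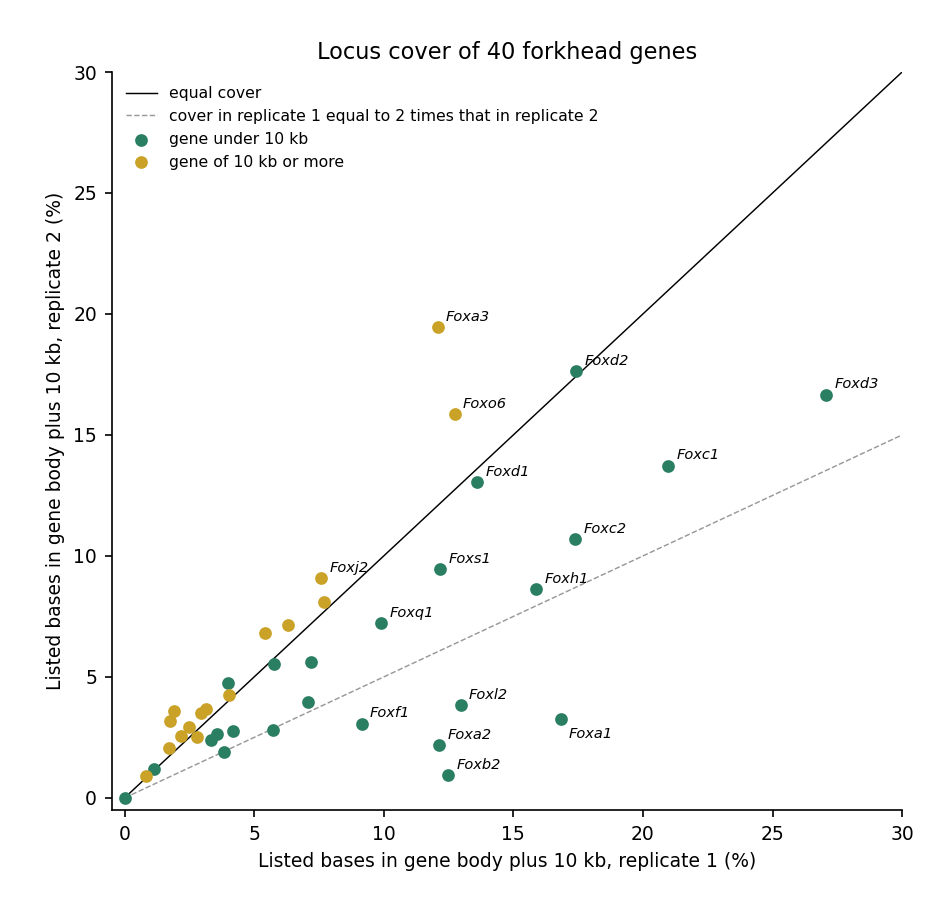
Listed bases as a percentage of the gene with 10 kb added at either end, in replicate 1 (horizontal) and replicate 2 (vertical) for 40 forkhead loci, with genes under 10 kb in green and longer genes in yellow. Short genes such as Foxa1, Foxa2, Foxb2 and Foxl2 lie below the dashed line, where replicate 1 has over 2 times the cover, and long genes lie near or above the line of equal cover.

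Wide open promoters were present as well. At least 70% of promoter bases were listed in both replicates at 9 of 41 members, against 5877 of all 21938 protein-coding genes. The 9 were Foxc1, Foxd1, Foxd2, Foxd3, Foxk1, Foxk2, Foxn2, Foxo6 and Foxp4. Of these, Foxd1 and Foxd3 had a geometric mean under 1.2, which held for 2.47% of the 5877 promoters of that width among all genes. At Foxd1 the listed share was 87.8% and 73.3%, and at Foxd3 92.01% and 71.4%. Both were broad stretches with low values, while Foxj1 had values of 7.85 and 10.1 with 64.3% and 62.8% listed.

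Away from starts, 133 sites in 32 forkhead loci were open in both replicates more than 1000 bp from every annotated start. Their medians were 0.870 and 0.869, against 0.761 and 0.968 over all 64298 such sites of the genome. Foxp1 had 27 of them and Foxn3 17, both very long genes, and Foxk1 had 9 and Foxo6 8. Introns held 83 of the 133 sites. The 95th percentile over the genome was 4.07 and 4.16, and the sites named next lay above it in both replicates except at Foxf1 and Foxo6.

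The highest such site by geometric mean belonged to Foxc2, while a Foxp4 site was higher in replicate 1 and a Foxk1 site in replicate 2. The Foxc2 site lay 2660 bp upstream of the gene, at chr8:121113401-121113620, in an intron of the annotated gene Gm20388, and had values of 7.68 and 8.45. Foxc1 had a site of the same kind 5262 bp upstream, at chr13:31801281-31801460 between genes, with 7.51 and 5.10. At both paralogues this upstream site was higher than the promoter in each replicate. The sequences are shown because they are the highest distal sites of this pair, on the plus strand of mm10 with capitals as above.
Foxc2 distal site: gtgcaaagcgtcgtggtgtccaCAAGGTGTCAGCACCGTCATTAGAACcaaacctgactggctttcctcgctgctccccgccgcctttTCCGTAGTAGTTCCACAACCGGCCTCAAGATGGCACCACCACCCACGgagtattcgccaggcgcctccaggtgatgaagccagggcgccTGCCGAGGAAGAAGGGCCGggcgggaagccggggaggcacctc
Foxc1 distal site: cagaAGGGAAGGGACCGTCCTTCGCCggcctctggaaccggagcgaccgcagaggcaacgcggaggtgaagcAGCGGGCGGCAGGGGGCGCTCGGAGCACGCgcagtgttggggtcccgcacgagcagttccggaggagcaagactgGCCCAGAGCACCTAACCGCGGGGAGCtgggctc
The Foxc2 site held AAGATGGC, the core bound by YY1, inside a shared footprint. The Foxc1 site held a GGGCGG match inside a shared footprint. Shared footprints took up 92 of 220 bases at Foxc2 and 78 of 180 at Foxc1.

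Foxk1 had a pair of strong sites in its introns. That at 39181 bp downstream of the start, chr5:142440541-142440820, had 5.11 and 11.5, about as high as the promoter in replicate 2. That at 46841 bp, chr5:142448241-142448440, had 6.39 and 5.19. Near the far end of Foxp4 a site at chr17:47864601-47864780 had 7.92 and 6.14, above the Foxp4 promoter in both replicates. Foxf1 had a site 8485 bp downstream, inside an exon of Mthfsd, with 6.29 and 3.19. Foxo6 had intron sites 9948 bp and 3988 bp from its start, with 3.36 and 5.88 and with 3.00 and 5.98. The sites of Foxo6 and the first site of Foxk1 were higher in replicate 2, and those of Foxf1, Foxp4 and Foxc1 in replicate 1.

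**Figure D4:**
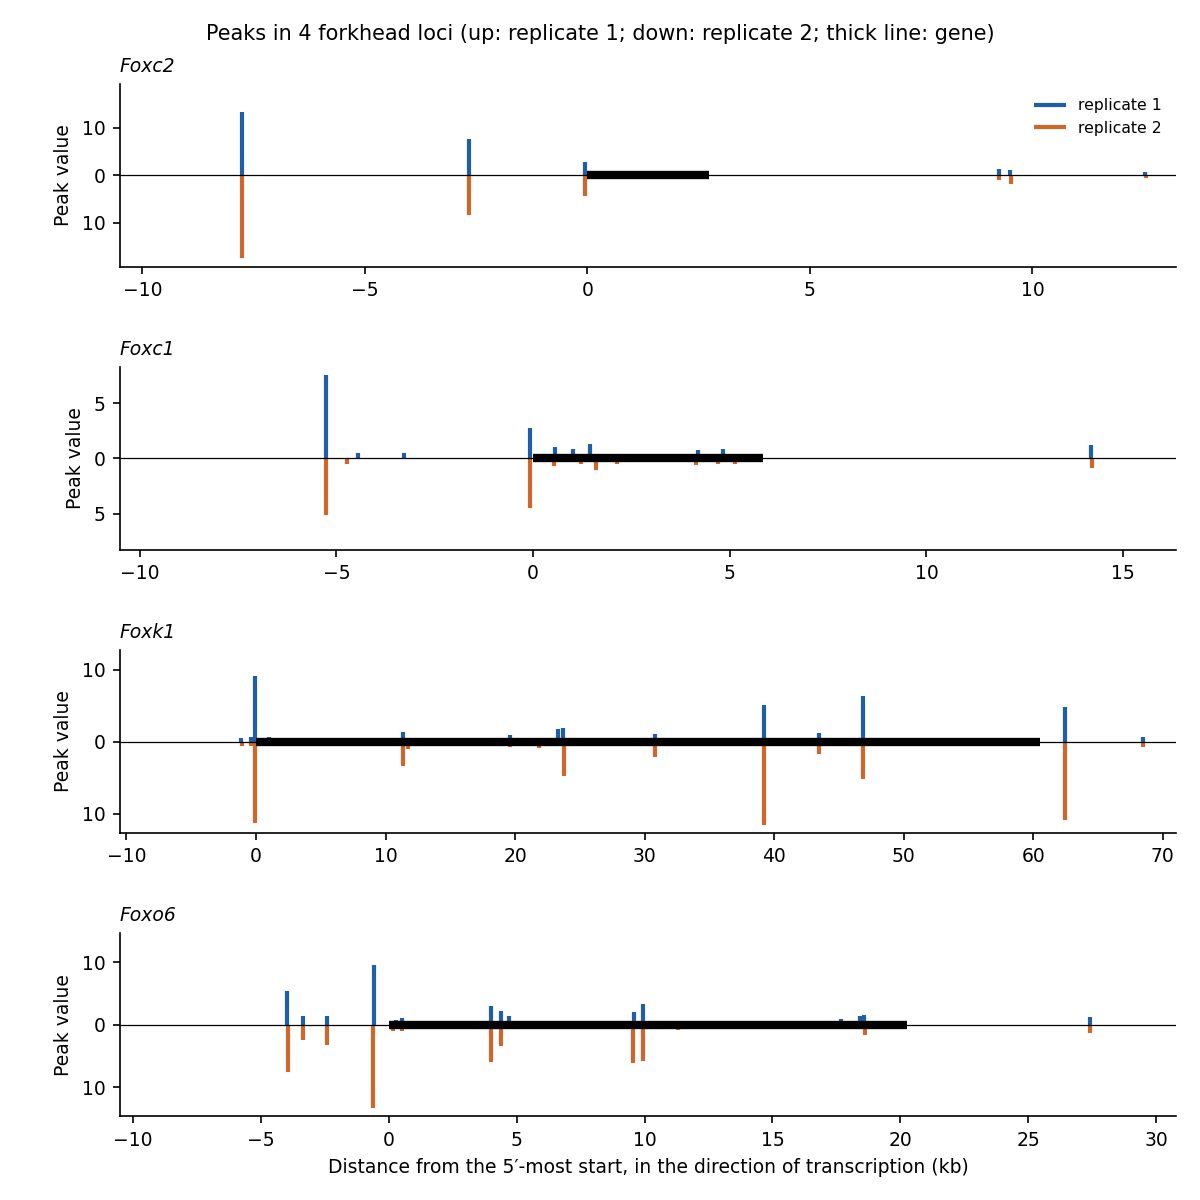
Peak values (depth-scaled signal) in the loci of Foxc2, Foxc1, Foxk1 and Foxo6 by distance from the 5′-most start in the direction of transcription, with replicate 1 upward, replicate 2 downward and the gene as a thick line. At Foxc2 and Foxc1 the sites 2660 bp and 5262 bp upstream are higher than the promoter peak; the tall peaks at the left edge of Foxc2 and right of Foxk1 lie at the starts of Mthfsd and Ap5z1.

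The tallest peak within 1000 bp of a forkhead start was inside Foxn3. It lay 941 bp downstream of an inner start and 171405 bp from the 5′-most one, in an intron at chr12:99392041-99392220, with 14.2 and 22.3. It is outside the 500 bp window and was therefore not the promoter value. Its sequence is shown, on the plus strand with capitals as above, because shared footprints took up 108 of its 180 bases.
Foxn3 site near an internal start: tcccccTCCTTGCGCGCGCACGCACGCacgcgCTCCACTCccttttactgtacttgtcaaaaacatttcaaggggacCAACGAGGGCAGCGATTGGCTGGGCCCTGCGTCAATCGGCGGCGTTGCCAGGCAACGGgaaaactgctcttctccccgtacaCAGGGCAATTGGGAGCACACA
It held AGCCAAT, the NF-Y core, on the minus strand inside a shared footprint.

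Several loci held footprints over the core consensus of CTCF, the insulator protein, on either strand. Such footprints were called in both replicates at 9 positions, in the loci of Foxn1 (3), Foxf2, Foxd1, Foxn4, Foxk1 and Foxi2 and in the stretch shared by Foxd2 and Foxe3. The sequences of 6 are shown because they lie in loci with an open promoter (Foxf2, Foxk1 and Foxi2) and in loci with a closed one (Foxn1 and Foxn4). Each is the footprint of replicate 1 in mm10, written so that the core, in capitals, reads in the given direction. They are chr11:78355659-78355689 (plus), chr11:78360669-78360700 (plus), chr13:31632664-31632693 (minus), chr5:114248241-114248269 (plus), chr5:142448329-142448356 (minus) and chr7:135403600-135403632 (plus).
Foxn1, intergenic: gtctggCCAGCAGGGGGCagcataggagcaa
Foxn1, intron: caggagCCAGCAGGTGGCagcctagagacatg
Foxf2, intergenic: ctgctCCACCAGGCGGCgcgctggtcctcc
Foxn4 locus, coding exon of Acacb: atctaCCACCAGGTGGCagtgcagttcgc
Foxk1, intron: aagtgaCCACAAGATGGCgctccgagaa
Foxi2, intergenic: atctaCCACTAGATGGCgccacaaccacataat
The edges of the Foxi2 footprint were identical in both replicates, and those of the Foxn1, Foxf2 and Foxn4 footprints shown differed by at most 3 bp. The right edge of the Foxk1 footprint differed by 11 bp. In the Foxk1 core the last 8 letters are also the YY1 core AAGATGGC. The peaks that hold these footprints had 5.10 and 2.26 and then 3.07 and 2.29 at Foxn1, 3.25 and 1.96 at Foxf2, 3.26 and 2.83 at the Foxn4 locus and 2.08 and 1.79 at Foxi2, each higher in replicate 1. Foxn1, whose promoter was closed, had 7 distal sites open in both replicates.

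Over the forkhead loci as a whole the CTCF core was not frequent. It was in 1.13% of 972 footprints in replicate 1 and 0.985% of 914 in replicate 2, against 2.47% and 2.04% of all footprints. Among distal sites open in both replicates 6.02% held it, against 13.3% of all such sites. The forkhead core TGTTTAC, searched on both strands, was in none of the footprints of these loci. It was in 0.0212% and 0.0131% of all footprints, which have a median width of 11 bp, a share that would give less than 1 match in the forkhead loci. It was in 3 of the 133 distal sites (2.26%), against 1.82%, among them the first Foxk1 intron site, where it lay outside any shared footprint. Of the promoters at the 5′-most start 2 of 41 held it (Foxa1 and Foxp2), against 9.43% of all promoters. GGGCGG was in 38 of 41 (92.7%), against 60.8%, beside a CpG-rich share of 73.2% against 46.6%. The core consensus letters of NRF1 and of MEF2 were in no forkhead promoter, against 1.71% and 10.9%.

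Of the 9 genes with a closed promoter, 8 had at least 1 peak within the gene or 10 kb of it in both replicates, against 44.1% of all genes with a closed promoter, and Foxr1 had none. The highest distal site had 1.86 and 1.41 at Foxi1, 0.870 and 0.722 at Foxq1 and at most 0.941 and 1.08 at the 2 sites of Foxn4. Foxl1 and Foxd4 had 2 distal sites each. Foxh1 and Foxr2 had none, and all peaks of Foxr2 lay at the starts of other genes. Foxl1 lies 9044 bp from Foxc2 and Foxd2 lies 16273 bp from Foxe3, so that the flanks of each pair overlap and sites there count for both.

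The partners of forkhead factors are given for the pathway. All 25 of the listed corepressors and cofactors (among them Sin3a, Sin3b, Tle1, Hdac1, Ctbp1 and the Smad genes) had open promoters in both replicates, with medians of 6.99 and 13.2. Of the 25, 92% were CpG-rich, and 97.1% of all CpG-rich promoters were open in both, so that this count was near the background. Mta1 alone, at 1.87 and 1.51, was higher in replicate 1, against 17.9% of all open promoters. Sin3a, the corepressor that Foxk factors recruit, had 8.40 and 19.4, and Tle4, a Groucho corepressor, had 16.0 and 28.4.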

How the data were processed

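Each library had its own deposited peaks, footprints and FDR positions on mm10, made from its filtered alignments without pooling, per the file headers. Names and versions of the aligner and callers were not given in the sources used here. Whether CAST alleles mapped less often to this reference was not analysed here. The deposited peak signal was in whole multiples of a small step (0.00544 and 0.00587) for 100% of values, within 0.05 of a step, as depth-scaled tag counts would be; the median peak then rested on 134 and 122 tags. The deposited per-position value is an FDR, a p-value type of number, and footprints carry 0.01 on every line. Intervals are exact Poisson or Clopper-Pearson at 95% and cover counting error only, since tags can be PCR copies.

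The wider of the deposited peak lists was used, with at least 1 bp overlap, all known starts of coding GENCODE M21 transcripts, and GRCm38 sequence from RefSeq. No test was run, since there is 1 group. Members, lists and motifs were chosen with earlier results of these data known. Members were named, apart from 1 that is not reported here, and values were given in full by height, cover, distal sites and paralogue pairs. The marker Dnai1 had no match. Interval overlap, step and motif searches were tested on simulated data. Python 3.11.15, pandas 2.3.3, numpy 2.4.6 and scipy 1.17.1 were used. Alternatives tried were the stricter list, windows of 250 and 1000 bp, 50 bp overlap, the 5′-most start, peaks above the median, flanks of 0 and 50 kb, FDR under 0.01 and 0.001, and each replicate left out.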

Additional observations from a re-analysis of the deposited data

How the results depend on the processing

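No paired analysis was possible because there is a single group. The number of members open in both replicates was 29, and it was 19 where peaks had to exceed the median of their library (46.3% of members against 59.6% of all genes). It was 21 with the stricter peak list (51.2% against 61.7%), 25 with a window of 250 bp (61.0% against 64.2%), 34 with 1000 bp (82.9% against 67.3%), and 29 to 32 with 1 replicate left out. The median promoter value, 2.11 as the mean of both replicates, was 4.39 with the stricter list, in which fewer members are open (5.61 and 6.12 over all genes), and 1.87 to 2.38 with 1 replicate left out. Median locus cover was 6.11%. It was 9.93% with no flank and 3.89% with 50 kb. At an FDR under 0.01 and 0.001 it was 4.11% and 2.96%. It was 3.31% for bases listed in both replicates, and 3.84% to 6.30% with 1 replicate left out. Each of these values was above that of all genes, which were not matched for length or CpG content. Among CpG-rich genes under 10 kb, the median of the mean cover was 6.55% for members and 7.49% for all genes. By replicate, the median of these members was the higher one in replicate 1 and the lower one in replicate 2. Footprints per locus had a median of 16, 7.5 with no flank, and 15 to 18 with 1 replicate left out. Members higher in replicate 1 were 12 of 29, against 17.9% of all open promoters, and 5 of 21 with the stricter list, against 15.1%. They were 8 of 25 at 250 bp and 15 of 34 at 1000 bp, without a share over all genes to set beside them. At 1000 bp the promoter values of 6 members (Foxa1, Foxa3, Foxe1, Foxn3, Foxp3 and Foxs1) moved by more than the spread between replicates. The wider window took in higher peaks, such as 7.34 and 13.7 at Foxa3, 3.79 and 8.07 at Foxp3 and 14.2 and 22.3 at Foxn3. The promoter values of the 21 members kept by the stricter list were unchanged. The cause of the other changes was not tested. Low promoters rested on few tags, from 45 at Foxi2 in replicate 2, which limits their order.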
